A study of Mus musculus with 2 samples.

Results

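Resident Kupffer cells (KCs) on normal diet (ND) were 1605 of 3313 liver cells from 2 ND-fed mice. They came from 1 pooled single-cell RNA-sequencing library of 4 mice, which held 15384 cells with at most 25% of their counts from mitochondrial genes. The KCs were chosen by measured counts: a cell was taken when it had a count for Clec4f, counts for at least 3 of Timd4, Cd163, C6, Vsig4, Fcna and Cxcl13, and at most 25% mitochondrial counts. As deposited, 34 of 25909 genes had no value between 0 and 5 in any cell, as if low counts had been set to 0; Clec4f was 1 of them, with a lowest count of 8. The levels of these 7 genes therefore describe the choice and were not tested, and any gene that differs between KCs and cells that did not meet the rule is given as a description too.

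Liver leukocytes had been sorted as CD11b+ CD45.2+ cells without SiglecF, NK1.1, B220 or CD90.2, which removes eosinophils and most NK, B and T cells. All 4 mice carried loxP-flanked Egr2 alleles. The controls (Egr2fl/fl) had no Cre, whereas Lyz2Cre/+.Egr2fl/fl mice also carried Cre in the lysozyme 2 gene, which is active in myeloid cells at large and not in KCs alone. Each genotype was studied on ND and after 7 weeks on a high-fat diet that lacks choline and has defined amino acids (CDA-HFD), a model of metabolic dysfunction-associated steatohepatitis (MASH). CDA-HFD feeding was started in males of 6 to 12 weeks of age; the age of the ND-fed mice is not given in the sources used here. Each group was 1 mouse, marked by its own hashtag before pooling. A difference between the mice therefore has no replicate check, genotype and mouse cannot be told apart, no p-value is given, and every 95% interval covers counting error only.

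KCs are the macrophages that live inside the liver sinusoids. They are seeded before birth, renew themselves locally and take particles, bacteria and worn-out red cells from the portal blood, with scavenger and complement receptors for uptake and ferroportin for the return of iron. Their identity is set in the sinusoid by signals from endothelial, stellate and liver parenchymal cells that act through Notch, TGFβ/BMP and liver X receptor (LXR) alpha. In MASH, KCs are lost and monocyte-derived macrophages fill the niche.

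In the ND-fed Egr2fl/fl mouse the rule took 770 of 1723 cells (44.7%, exact interval 42.3 to 47.1%). In the ND-fed Lyz2Cre/+.Egr2fl/fl mouse it took 835 of 1590 (52.5%, interval 50.03 to 55.0%). The share was 7.83 percentage points higher in the latter (Newcombe interval 4.38 to 11.3). Among cells with at least 90% of their hashtag counts from the own hashtag the difference was 12.2 points (50.2% and 62.4%). This is a share of a CD11b+ sort, so it depends on the gate and on the other cells that passed it. Most KCs had counts for nearly all marker genes: 5 of the 6 further genes in 360 and 450 cells and all 6 in 339 and 284 cells of the Egr2fl/fl and the Lyz2Cre/+.Egr2fl/fl mouse. Cells just inside the limit, with 3 of 6, numbered 16 and 18 and had a median of 6827 and 6177 counts in total. Cells just outside it, with a Clec4f count and 2 of 6, numbered 9 and 11 and had a median of 4183 and 5205 counts. Few cells lay near the limit, on either side, and they were shallow.

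**Figure D1:**
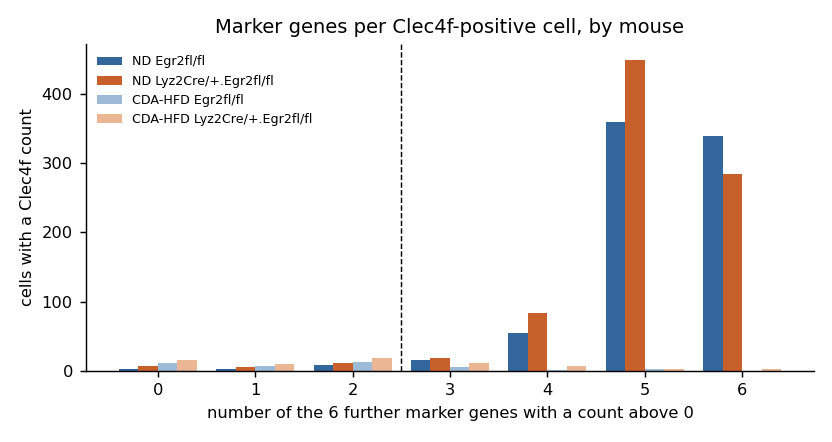
Number of cells with a Clec4f count (y axis) by how many of the 6 further marker genes had a count (x axis), as bars for each of the 4 mice. The dashed line marks the limit of the rule, and in the ND-fed mice 699 and 734 of the cells to its right carry 5 or 6 of the genes.

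KCs held more counts per cell than the other cells of the same mice. Their median was 25697 counts and 3782 genes per cell in the Egr2fl/fl mouse and 23220.0 counts and 3647 genes in the Lyz2Cre/+.Egr2fl/fl mouse, against 11669 and 9015 counts in the other ND cells. Summed over the KCs of a mouse, 19230242 and 19078628 counts were available. The median mitochondrial share was 2.12% in both mice, a cell's own hashtag made up a median of 94.1% and 94.5% of its hashtag counts, and no barcode was shared between mice. Levels below are CPM (counts scaled to a total of 1000000) of the summed counts of a mouse's KCs. They are not divided by gene length, so they are compared between groups of cells and not between genes.

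The levels of the genes of the rule are given first, as a description of the choice. Clec4f, a galactose-binding lectin, stood at 7301 CPM in KCs of the Egr2fl/fl mouse and 7838 CPM in those of the Lyz2Cre/+.Egr2fl/fl mouse. Timd4, the phosphatidylserine receptor Tim4 used for uptake of dying cells, stood at 672 and 639.6 CPM, with a count in 96.9% and 96.5% of the cells. Vsig4, a complement receptor for C3 fragments, stood at 3163 and 3389 CPM. The other ND cells held 26.3 and 77.7 CPM of Clec4f and 5.31 and 7.88 CPM of Timd4, but Clec4f counts below 8 are missing there. Cd163, the receptor for haptoglobin-bound haemoglobin, stood at 684 and 759 CPM, the complement component C6 at 1018 and 937 CPM, and the ficolin Fcna at 3096 and 4324 CPM. These 6 genes were within 1.5-fold of each other in the 2 mice. Cxcl13, a chemokine that attracts B cells, was the patchy gene of the rule: a count was present in 51.0% and 40.1% of KCs, the middle cell held 1 and 0 counts and the highest 410 and 513.

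Genes that KCs are known for and that the rule did not use told the same cells apart. Of 18 such genes, 17 were at least 4-fold higher in KCs than in the other ND cells of the same mouse, in both mice (ratios here with 1 CPM added to both sides). Over all genes read this held for 206 of 5695 (3.62%). Cd5l, a secreted scavenger protein, stood at 6147 and 6265 CPM in KCs and 20.1 and 66.0 CPM in the other ND cells. The folate receptor Folr2 stood at 1920.4 and 2157 CPM against 14.6 and 45.4 CPM. Both genes had counts in over 99% of KCs of either mouse. Cd207, the lectin langerin, was the gene that missed the limit, with 1111 and 1118 CPM in KCs and 91.2 and 331 CPM in the other ND cells, a ratio of 12.1 and 3.37. Of the genes past 4-fold, 7 lack low counts (Apoe, C1qa, C1qb, C1qc, Cd5l, Ctsb and Wfdc17), which lowers their level in the other cells. With each 0 there set to the highest missing count, all 7 stayed past 4-fold, with ratios from 4.27 to 13.4. Among genes outside the list of 18, Fabp7, a fatty acid carrier, was 100.4-fold and 33.3-fold higher in KCs, and the thyroid hormone receptor gene Thrb 30.4-fold and 31.8-fold. Slc16a9, a monocarboxylate transporter, was 60.9-fold and 52.7-fold higher, and the epoxide hydrolase Ephx1 35.5-fold and 22.5-fold. The 20 genes with the highest ratios were these 4 and Pcolce2, Cd5l, Marco, Paqr9, Chp2, Folr2, C4b, Pmp22, Apoc1, Ccdc148, Slc45a3, Sdc2, Il18bp, C2, Kcna2 and Fam167a. The ranking used the ratios before zeros were filled. Cd5l had ratios of 13.4 and 11.0 after filling, so its place is uncertain. Counts of KC genes in the other ND cells were higher in the Lyz2Cre/+.Egr2fl/fl mouse for 14 of the 18 listed genes, and the part of free RNA in this was not tested.

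**Figure D2:**
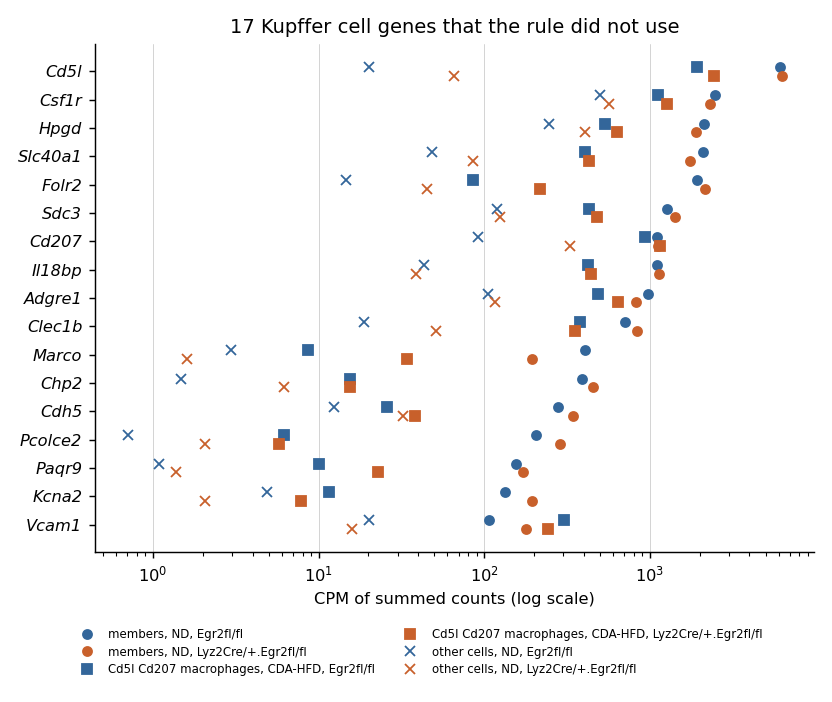
CPM on a log scale (x axis) of 17 of the 18 KC genes that the rule did not use (y axis), as 1 point for the KCs, the other ND cells and the Cd5l Cd207 macrophages of each mouse. KCs lie to the right of the other ND cells for every gene shown; 5 of the genes (Cd5l, Cd207, Il18bp, Vcam1 and Clec1b) were used to choose the CDA-HFD macrophages.

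The transcription factors of the KC programme were shared more widely. Of 15 listed factors, 13 were read against the other ND cells and 5 were at least 4-fold higher in KCs in both mice, Nr1h3, Rxra, Spic and Tfec among them. Nr1h3, which encodes LXR alpha, stood at 434 and 392 CPM in KCs and 35.2 and 35.7 CPM in the other ND cells, and its partner Rxra at 200.3 and 191 against 14.2 and 21.3 CPM. Spic, a factor of red pulp macrophages that handle haem, stood at 105 and 99.7 against 15.6 and 13.5 CPM. Id3, a KC lineage factor, was 3.82-fold and 1.81-fold higher in KCs and so missed the limit in both mice. Spi1, which encodes the general myeloid factor PU.1, differed little, at 658 and 662 CPM in KCs and 555 and 592 CPM in the other cells. Of 11 receptors and mediators for niche signals, 8 were read and 1, the CSF1 receptor Csf1r, passed 4-fold, at 2474 and 2312 CPM against 499.9 and 569 CPM. The Notch receptor gene Notch2 was lower in KCs, at 35.9 and 30.5 CPM against 92.3 and 111 CPM.

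Genes for uptake, complement, iron and lipid handling were read by their lists. Among 19 uptake receptors, 18 were read and 6 passed 4-fold over the other ND cells in both mice: Msr1, Marco, Mrc1, Axl, Mertk and Siglec1. The mannose receptor Mrc1 stood at 1073 and 1069.9 CPM in KCs and 96.3 and 192 CPM in the other cells, and the dying-cell receptor kinase Mertk at 177 and 181 against 15.2 and 24.4 CPM. Fcgr2b, the inhibitory IgG receptor that sinusoidal endothelium carries, went the other way, with 13.5 and 11.6 CPM in KCs against 237 and 304 CPM.

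Complement genes were 7 of 12 past 4-fold. The 3 chains of C1q, the opening component of the classical pathway, were 11.9-fold and 10.3-fold higher for C1qa, 9.76-fold and 7.86-fold for C1qb and 13.5-fold and 10.7-fold for C1qc. The classical pathway genes C4b and C2 stood at 298 and 297 CPM and 124 and 112 CPM, against 6.09 and 5.48 CPM and 2.58 and 3.88 CPM in the other cells. Properdin (Cfp), which steadies the alternative pathway convertase, passed as well. The central component C3 was not among the 7: it stood at 26.5 and 18.1 CPM in KCs and 178 and 109 CPM in the other cells.

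Of 13 iron and haem genes, 12 were read and 5 passed. Slc40a1, the iron exporter ferroportin, stood at 2088 and 1741 CPM against 48.1 and 85.6 CPM, and Hmox1, which opens the haem ring, at 1232 and 1052 against 76.3 and 91.6 CPM. Blvrb, Ncoa4 and Hebp1 passed too. The ferritin chains Fth1 and Ftl1 were high in all cells, with ratios of 1.38 and 1.37 and of 2.79 and 2.55. In lipid handling, 5 of 13 genes passed: the LXR targets Abca1, Apoe, Apoc1, Lpl and Pltp. Apoc1 stood at 2491 and 2444 CPM against 40.1 and 64.9 CPM in the other cells. Of 16 lysosomal genes read, 4 passed (Ctsb, Ctsd, Lgmn and Grn).

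Between the 2 ND-fed mice, most of the KC genes named so far moved little. The study deleted Egr2, a zinc finger factor of the early growth response family, so its level was read first. Egr2 stood at 5.30 CPM (4.32 to 6.44) in KCs of the Egr2fl/fl mouse and 0.996 CPM (0.600 to 1.56) in those of the Lyz2Cre/+.Egr2fl/fl mouse, with a count in 5.32% and 1.92% of the cells. The ratio was 0.188 (0.109 to 0.308). Egr2 was thus near the bottom of what could be read in KCs even without Cre, and lower still with Cre; whether the counts come from the deleted part of the gene is not given. In the other ND cells Egr2 stood at 25.2 and 16.4 CPM. Lyz2, whose locus holds the Cre, stood at 8251 and 3772 CPM in KCs, a ratio of 0.457 (0.453 to 0.461), and at 9912 and 4548 CPM in the other ND cells, a ratio of 0.459. Both genes followed the labels.

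Of 9526 genes read between the KCs of the 2 mice, 42 (0.441%) were at least 2-fold higher and 30 (0.315%) at least 2-fold lower in the Lyz2Cre/+.Egr2fl/fl mouse. The median ratio over all of them was 1.04, and the middle 90% lay between 0.779 and 1.38. Of the 42, 19 were genes that hepatocytes secrete, described further on and counted after the values were seen. Both counts move with the minimum of 200 counts: they were 16 and 22 with 500, and 69 and 45 with none. In the lists of KC factors, niche receptors, iron, lipid and lysosomal genes none passed 2-fold, which with so few genes is near the share over all genes. Among the 18 KC genes outside the rule only Marco did, and the median of that list was 1.11. Marco, a scavenger receptor for bacteria and particles, stood at 409 and 195 CPM, a ratio of 0.476 (0.458 to 0.495), with a count in 46.5% and 29.1% of KCs. When every cell was thinned to 6553 counts, the shares were 37.1% and 21.4%.

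**Figure D3:**
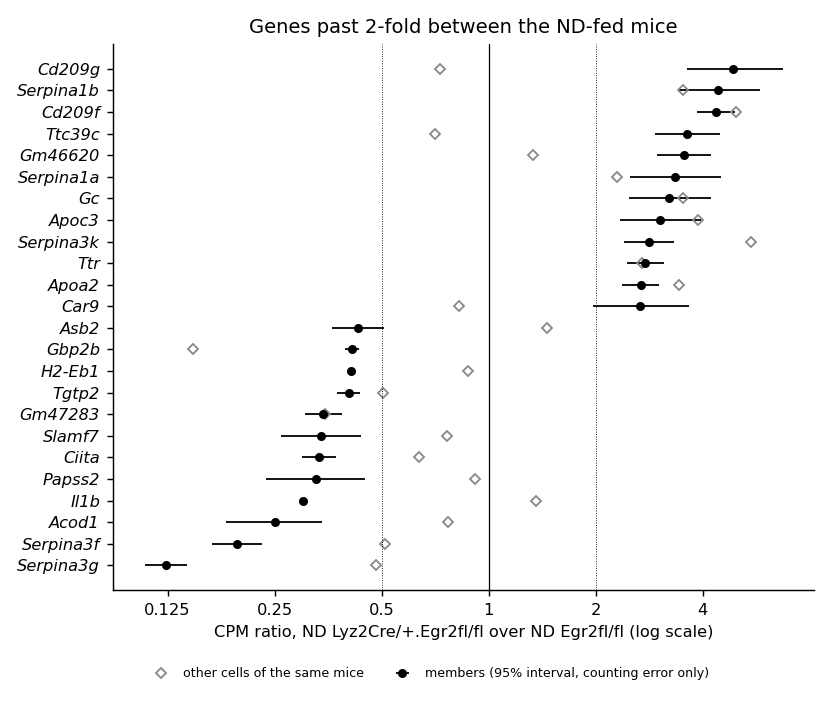
Ratio of CPM in the ND-fed Lyz2Cre/+.Egr2fl/fl mouse over the ND-fed Egr2fl/fl mouse on a log scale (x axis) for the 24 named genes past 2-fold in KCs, 12 on each side (y axis), with 95% counting intervals and the same ratio in the other ND cells. In KCs the ratios run from 0.124 for Serpina3g to 4.88 for Cd209g, and Il1b lies on opposite sides of 1 in KCs and in the other cells. Cd209g, Serpina1a, Serpina1b, Apoc3, Acod1, Papss2 and Slamf7 were read only through the mouse where they were higher.

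Genes for antigen presentation on MHC class II were lower in KCs of the Lyz2Cre/+.Egr2fl/fl mouse. MHC II alpha and beta chains present peptides to CD4+ T cells, Cd74 (the invariant chain) guides them, H2-DM loads the peptide, and Ciita is the coactivator that switches these genes on together. Of 11 genes for MHC II and costimulation, 10 had a ratio below 1 and 4 passed 2-fold (H2-Aa, H2-Ab1, H2-Eb1 and Ciita); the median was 0.538 against 1.04 over all genes. H2-Aa stood at 5518 CPM in KCs of the Egr2fl/fl mouse and 2523 CPM in those of the Lyz2Cre/+.Egr2fl/fl mouse (ratio 0.457, 0.452 to 0.462), H2-Ab1 at 5707 and 2748 CPM (ratio 0.481) and H2-Eb1 at 4161 and 1712 CPM (ratio 0.411). Ciita stood at 67.3 and 22.5 CPM (ratio 0.334, 0.299 to 0.373). Cd74 stood at 11048 and 5664 CPM, a ratio of 0.513 just short of 2-fold, and the loading chains H2-DMa and H2-DMb1 had ratios of 0.719 and 0.627. All 7 genes of the class II machinery thus had ratios below 1, from 0.334 to 0.719. The costimulatory ligands did not move as a block: Cd86 had a ratio of 1.18, Cd80 of 0.978, Cd40 of 0.737 and Cd274, which encodes PD-L1, of 0.538.

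In the other ND cells the same 3 class II chains had ratios of 0.875, 0.885 and 0.874, and Ciita of 0.638. In the Cd5l Cd207 macrophages of the CDA-HFD-fed mice, described further on, H2-Aa stood at 4136 CPM in Egr2fl/fl and 2599.8 CPM in Lyz2Cre/+.Egr2fl/fl and H2-Eb1 at 3618 and 2155 CPM. The lower level with Cre was thus present in those macrophages too. Whether the ratios differ between these cells was not tested.

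The promoters of these genes carry a known shared module, the S, X and Y boxes, of which the Y box core was searched as GATTGG on both strands. The 250 bases before the start are shown, from RefSeq (GRCm38.p6), for the 3 genes of the group with 1 promoter entry and the core, with GATTGG or its reverse complement in capitals. They lie at chr17:34287824-34288073 on the minus strand for H2-Aa, chr17:34305617-34305866 on the plus strand for H2-Eb1 and chr17:34152941-34153190 on the plus strand for H2-DMb1. The sequences are written 5′ to 3′ along each gene.
H2-Aa: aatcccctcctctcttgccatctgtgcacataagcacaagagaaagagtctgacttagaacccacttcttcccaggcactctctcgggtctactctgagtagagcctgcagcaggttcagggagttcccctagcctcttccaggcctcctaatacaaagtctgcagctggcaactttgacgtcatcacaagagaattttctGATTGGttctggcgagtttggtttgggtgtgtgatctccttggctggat
H2-Eb1: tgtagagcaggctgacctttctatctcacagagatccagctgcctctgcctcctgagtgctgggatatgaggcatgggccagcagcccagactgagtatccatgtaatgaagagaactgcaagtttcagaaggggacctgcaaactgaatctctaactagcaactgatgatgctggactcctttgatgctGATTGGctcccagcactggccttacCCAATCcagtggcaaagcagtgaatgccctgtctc
H2-DMb1: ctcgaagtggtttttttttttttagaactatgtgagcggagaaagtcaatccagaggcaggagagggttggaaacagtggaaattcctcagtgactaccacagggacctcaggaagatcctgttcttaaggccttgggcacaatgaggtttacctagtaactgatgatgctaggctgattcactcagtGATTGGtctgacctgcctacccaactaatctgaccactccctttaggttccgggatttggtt
GATTGG began at position -49 relative to the start of H2-Aa, -60 of H2-Eb1 and -62 of H2-DMb1. GATTGG was present in 4783 of 32851 promoters of the same length (14.6%), and the longer CTGATTGG, which includes it and was found in H2-Aa and H2-Eb1, in 1258 (3.83%). The X2 box core TGACGTCA was found in H2-Aa and in 508 promoters (1.55%). A match describes these letters and does not show binding.

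Class II transcripts were lower across the KCs of the Lyz2Cre/+.Egr2fl/fl mouse and not only in a few cells. H2-Aa, H2-Ab1, H2-Eb1 and Cd74 together made up a median of 2.5% of a cell's counts in the Egr2fl/fl mouse, with 10% of cells below 1.11% and 10% above 4.45%. In the Lyz2Cre/+.Egr2fl/fl mouse the median was 1.03%, and these bounds were 0.258% and 2.64%. KCs with less than 0.5% of such counts, a limit set after the values were seen, were 14 of 770 (1.82%, 0.997 to 3.03%) and 193 of 835 (23.1%, 20.3 to 26.1%). The distributions overlapped, since 10% of cells of the second mouse lay above 2.64%, past the median of the first. Within either mouse the 4 genes rose and fell together from cell to cell. Over 735 and 789 KCs thinned to 6553 counts, Spearman's rho was 0.805 and 0.838 for Cd74 with H2-Ab1, a description over cells of 1 library. These 4 genes lack values below 8 to 10. With every such 0 set to the highest missing count in the Lyz2Cre/+.Egr2fl/fl mouse alone, the summed ratios were 0.463 for H2-Aa, 0.487 for H2-Ab1, 0.425 for H2-Eb1 and 0.514 for Cd74, and 168 KCs (20.1%) lay under the 0.5% limit.

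**Figure D4:**
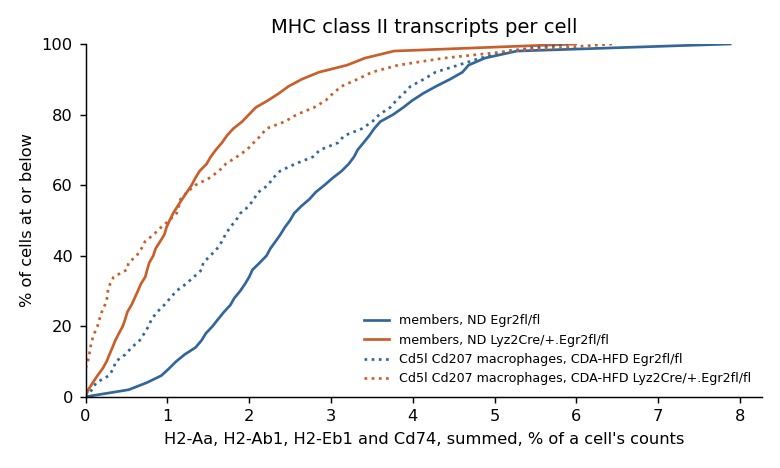
Cumulative share of cells (y axis, %) against the summed counts of H2-Aa, H2-Ab1, H2-Eb1 and Cd74 as a percentage of a cell's counts (x axis), 1 line per mouse and kind of cell. The line for KCs of the Lyz2Cre/+.Egr2fl/fl mouse lies to the left of that for the Egr2fl/fl mouse, with medians of 1.03% and 2.5%.

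Il1b, the precursor of the inflammatory cytokine interleukin 1 beta, was lower in KCs of the same mouse. It stood at 1747 CPM in KCs of the Egr2fl/fl mouse and 525 CPM in those of the Lyz2Cre/+.Egr2fl/fl mouse, a ratio of 0.30 (0.294 to 0.307), with a median of 30 and 5 counts per cell. A count was present in 96.2% and 86.1% of KCs. In the other ND cells Il1b stood at 1055 and 1434 CPM, the opposite order, and in the CDA-HFD macrophages at 1028 and 1248 CPM. The other ND cells are a mixture whose make-up differed between the mice: their neutrophil genes summed to 5042 and 14128 CPM. In KCs Il1a, the sister cytokine of Il1b, at 84.2 and 58.5 CPM, had a ratio of 0.695, and the receptor antagonist Il1rn of 0.928. Of 21 chemokines and cytokines read, 3 were at least 2-fold lower (Il1b, Cxcl10 and Ccl12), against 0.315% of all genes read. None was at least 2-fold higher, which with so few genes is near the 0.441% over all genes, and the median ratio was 0.928. Ccl12 had a count in 5.84% and 4.31% of KCs, so it was read only through the mouse where it was higher. The T cell attractant Cxcl10 stood at 84.2 and 38.8 CPM, and at 361 and 106 CPM in the other ND cells. Ccl24, the eosinophil attractant eotaxin-2, was steady at 889 and 877 CPM. Acod1, which makes itaconate in stimulated macrophages, stood at 11.3 and 2.83 CPM (ratio 0.251). It had a count in 9.09% and 3.47% of KCs, so it too was read only through the mouse where it was higher.

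Immediate early genes respond to stimulation within minutes and also to tissue dissociation. None of the 15 that were read passed 2-fold, all 15 had a ratio below 1 (39.4% of all genes read did), and the median was 0.741. Fos stood at 238 and 141 CPM, Btg2 at 295 and 151 CPM and the phosphatase Dusp1 at 291 and 151 CPM. In the other ND cells these 3 were higher in the Lyz2Cre/+.Egr2fl/fl mouse, with ratios of 1.19, 1.16 and 1.26. The make-up of those other cells also differed between the mice. KCs with and without an Il1b count were also compared in cells thinned to 1 depth. There Btg2 stood at 322 CPM in the 663 KCs with an Il1b count and 93.3 CPM in the 72 without in the Egr2fl/fl mouse, and at 192 and 78.5 CPM in the 546 and 243 of the other mouse. The part of cell handling in the Il1b ratio was not tested. Of 8 heat shock genes read, none passed 2-fold and the median ratio was 1.02, but the list's sum was 2397 and 1786 CPM. The abundant chaperone gene Hspa8 had a ratio of 0.630, Hsph1 of 0.708 and Hsp90aa1 of 0.789, while Hspa1a had one of 1.27.

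Serpina3g and Serpina3f, serine protease inhibitors of 1 gene cluster, had the lowest ratios among the 9526 genes read, which needed at least 200 counts in KCs and so left out Egr2. Serpina3g stood at 99.4 and 12.3 CPM (ratio 0.124, 0.108 to 0.142), with a count in 37.5% and 7.66% of KCs, and Serpina3f at 47.8 and 9.38 CPM (ratio 0.196). Gbp2b and Tgtp2 are GTPases of cell-autonomous defence that interferon gamma is known to raise. Gbp2b stood at 353 and 146 CPM (ratio 0.413) and Tgtp2 at 125 and 50.4 CPM (ratio 0.404). The remaining genes of the 12 lowest ratios were Papss2, Slamf7, Gm47283 and Asb2. Papss2 (11.7% and 4.19% of KCs) and Slamf7 (7.14% and 4.19%) were read only through the mouse where they were higher. The ratio of Slamf7, 0.339, was 0.625 with at least 4 of the 6 marker genes, and that of Asb2, 0.430, was 0.522 without the cells with the highest totals and 0.574 as a mean over cells, so that both calls were lost there. In the other ND cells Serpina3g, Serpina3f, Gbp2b and Tgtp2 had ratios of 0.483, 0.512, 0.147 and 0.504, all on the same side as in KCs. Of the 13 listed interferon genes, most of them targets of type I interferon, none passed 2-fold in KCs. A ratio above 1 was held by 9 of them and by 5770 of all 9526 genes read. Both counts are near the shares over all genes. Their median ratio was 1.18, against 1.04 over all genes. Irf7 stood at 334 and 407 CPM and Ifit2 at 55.0 and 83.8 CPM. The Serpina3, Serpina1, Tgtp and C4 families have close copies between which counting can split reads, so a value for 1 of their genes is uncertain.

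Of the 30 genes at least 2-fold lower in KCs of the Lyz2Cre/+.Egr2fl/fl mouse, 23 had at least 200 counts in the other ND cells. There 18 lay on the same side, 8 of them past 2-fold, and 5 on the opposite side. Of the 42 at least 2-fold higher, 12 had that many counts in the other ND cells. Among these, 10 lay on the same side, 4 of them past 2-fold, and 2 on the opposite side. How all genes read were placed in the other ND cells was not counted, so these numbers have no share to be judged by.

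On the higher side, the Cd209 lectins stood out. Cd209f and Cd209g are C-type lectins of the DC-SIGN family, which bind mannose-rich glycans. Cd209f stood at 17.1 CPM (15.3 to 19.0) in KCs of the Egr2fl/fl mouse and 74.5 CPM (70.7 to 78.5) in those of the Lyz2Cre/+.Egr2fl/fl mouse, a ratio of 4.37 (3.87 to 4.94). A count was present in 12.7% and 29.8% of KCs, and in 5.85% and 20.3% at 1 depth. Cd209g stood at 2.70 and 13.2 CPM (ratio 4.88), in 3.12% and 10.9% of KCs. Its share was below the 5% minimum in the Egr2fl/fl mouse, so Cd209g was read only through the mouse where it was higher. Both mice had such cells, and neither gene was found in KCs as a whole. Of KCs with a Cd209g count, 14 of 24 and 72 of 91 also had Cd209f, against 98 of 770 and 249 of 835 KCs in all. At 1 depth this held in the Lyz2Cre/+.Egr2fl/fl mouse, where Cd209g stood at 48.3 CPM in KCs with Cd209f and 6.80 CPM in those without (ratio 7.10, 4.40 to 11.7). In the Egr2fl/fl mouse it was not detectable at this depth, with 2.93 and 2.90 CPM (ratio 1.01, 0.0238 to 6.73). Cd209f was nearly absent elsewhere, at 0.391 and 1.94 CPM in the other ND cells and 0 and 0.179 CPM in the CDA-HFD macrophages. Cd209a, a marker of dendritic cells, was low in KCs (4.99 and 4.40 CPM against 320.5 and 389.9 CPM in the other ND cells), and Cd209b to Cd209e were at most 2.70 CPM in KCs.

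These 2 genes lie near each other on chromosome 8, and the 250 bases before their starts, from RefSeq (GRCm38.p6), show how alike they are. Capitals mark the longest run that both share. They lie at chr8:4105765-4106014 on the minus strand for Cd209f and chr8:4134486-4134735 on the plus strand for Cd209g.
Cd209f: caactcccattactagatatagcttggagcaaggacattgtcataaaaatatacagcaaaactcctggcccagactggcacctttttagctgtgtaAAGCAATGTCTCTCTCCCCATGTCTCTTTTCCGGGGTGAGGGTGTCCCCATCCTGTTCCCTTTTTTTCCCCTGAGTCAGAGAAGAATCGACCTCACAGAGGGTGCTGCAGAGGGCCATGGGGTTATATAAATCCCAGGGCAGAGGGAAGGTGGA
Cd209g: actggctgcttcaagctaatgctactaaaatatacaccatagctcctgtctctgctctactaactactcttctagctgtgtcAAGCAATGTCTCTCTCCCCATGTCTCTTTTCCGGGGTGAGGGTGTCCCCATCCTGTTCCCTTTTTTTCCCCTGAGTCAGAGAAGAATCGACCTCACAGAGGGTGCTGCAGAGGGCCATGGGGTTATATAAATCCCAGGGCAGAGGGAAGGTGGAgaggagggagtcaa
The shared run is 154 bases long, begins at position -154 of Cd209f and -168 of Cd209g, and was found in 2 of 32851 promoters, those of these genes. Both contain TATAAA, as do 12.4% of promoters on either strand. Where the transcripts are as close as the promoters, counting could split reads between the genes, so their separate values are uncertain.

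A second group on the higher side were genes that hepatocytes secrete into plasma. Of 17 hepatocyte genes listed, 15 had counts in KCs. Of these, 9 passed the minimum of counts and cells, some of them (Fgb, Serpina1a and Apoc3) only through the mouse where they were higher, and had ratios from 2.13 to 3.34 of the Lyz2Cre/+.Egr2fl/fl over the Egr2fl/fl mouse. The 6 below the minimum had ratios of 4.03 for Rbp4, 2.20 for Cps1, 2.12 for Cyp3a11, 1.91 for Cyp2e1, 1.504 for Ass1 and 0.858 (0.629 to 1.17) for Fabp1. Ttr (transthyretin) stood at 19.8 and 54.5 CPM and Apoa2 (apolipoprotein A2) at 19.4 and 52.1 CPM. In the other ND cells the same genes were higher too, with ratios of 2.71 and 3.44. Summed over the list, KCs held 119 and 287 CPM and the other ND cells 147 and 189 CPM. The sums in the other cells were carried by Ass1 (103 and 55.8 CPM) and, in the Lyz2Cre/+.Egr2fl/fl mouse, also by Alb from 1 cell; without these they were 43.9 and 110 CPM. KCs with counts for at least 3 of the genes were 102 of 770 and 321 of 835. Alb, the defining hepatocyte gene, was listed at 0 in KCs of both mice, but its lowest value in any cell was 160, so that smaller counts cannot be read. The part of free hepatocyte RNA or of hepatocyte material taken up by KCs was not tested. Of the 12 highest ratios, 7 were of this kind (Serpina1a, Serpina1b, Serpina3k, Gc, Apoc3, Ttr and Apoa2), and the others were the 2 lectins, Ttc39c, Gm46620 and Car9. Serpina1b, with a count in 4.55% and 15.2% of KCs, was also read only through the mouse where it was higher.

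Some genes fell short of 2-fold but lay outside the middle 90% of ratios. Trem2, a lipid receptor of macrophages, stood at 61.2 and 118 CPM (ratio 1.94, 1.80 to 2.08), with a count in 34.5% and 50.2% of KCs. At 1 depth, KCs with Trem2 held 187 against 93.1 CPM of the platelet factor Pf4 in the Egr2fl/fl mouse and 368 against 203 CPM in the other. The adhesion molecule Vcam1 had a ratio of 1.69, the cholesterol exporter Abca1 of 1.57, and Id1, a BMP target, of 0.662. Pf4 itself passed 2-fold, at 111 and 252 CPM (ratio 2.27), and had a ratio of 1.94, short of 2-fold, in the other ND cells. The complement brake Cd55 stood at 61.4 and 28.4 CPM in KCs (ratio 0.463) and at 41.3 and 85.0 CPM in the other ND cells, whose make-up differed between the mice.

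Within a mouse, KCs differed from cell to cell in some genes more than in others. Only genes detected in 20% or more of the KCs in both mice were ranked here, which leaves out rarer ones with higher ratios such as Hbb-bs. Ranked by variance over mean at 6553 counts per cell, taking the smaller of the 2 mice, the 12 leading genes were Apoe, CT010467.1, Cxcl13, Hmox1, Cd74, Wfdc17, Il1b, Marco, H2-Ab1, H2-Aa, Malat1 and H2-Eb1. The ratio was 28.9 and 35.8 for Apoe, 27.4 and 18.5 for Cxcl13, 18.5 and 15 for Hmox1 and 13.6 and 11.1 for Marco. Marco was absent from most cells and high in some: the middle cell had 0 counts in both mice, while the highest held 369 and 245. At 1 depth, the 271 and 177 KCs with a Marco count held less Apoe (23418.5 against 28624 CPM, and 26580.3 against 31709.8 CPM) and less Cd74 (10014.8 against 11890.4 CPM, and 4688 against 6082 CPM) than those without. They held more Cxcl13 (663 against 493 CPM, and 468 against 316 CPM) and more Cd55 (72.6 against 50.6 CPM, and 47.4 against 23.7 CPM). The order was the same in both mice for these 4 genes. Over cells, Spearman's rho of Apoe with Marco was -0.278 and -0.178, and of Apoe with Cd74 0.323 and 0.345.

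The surface genes by which KCs have been split into a smaller and a larger subset were read as well. Esam, which marks the smaller subset together with Cd206 (Mrc1) and Cd36, had a count in 0.260% and 0.958% of KCs, against 2.10% and 5.43% of the other ND cells. Mrc1 had counts in 98.6% and 98.4% of KCs, and Cd36 in 54.8% and 50.2%. These genes therefore gave no separate set of Esam-bearing cells at this depth.

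Transcripts of other cell types, hepatocyte genes aside, were read next. Summed over their lists, dendritic cell genes made up 22.7 and 21.8 CPM, lymphocyte genes 30.8 and 39.6 CPM and stellate cell genes 17.4 and 23.4 CPM. Neutrophil genes made up 259 and 403 CPM against 5042 and 14128 CPM in the other ND cells, with Camp and Ngp listed at 0 and no value of them below 76 in any cell. Monocyte genes made up 601 and 523 CPM against 5633 and 4451 CPM. Haemoglobin genes were listed in 2 KCs of each mouse, and here too counts below 68 are missing. Endothelial genes were more often present in KCs than in the other cells before thinning: counts for at least 3 of 16 were present in 157 of 770 KCs (20.4%) and 167 of 835 (20%), against 3.57% and 7.02% of the other ND cells. At 6553 counts per cell these shares fell to 2.31% and 3.04% against 3.09% and 8.19% of the other cells. Stab2, a hyaluronan receptor, had a count in 67.9% and 66.6% of KCs, while Clec4g, a defining gene of sinusoidal endothelium, had a count in 4.42% and 4.31%.

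KCs with counts for at least 4 of 15 cell cycle genes were few. They were 9 of 770 (1.17%, 0.536 to 2.21%) and 13 of 835 (1.56%, 0.832 to 2.65%), against 4.93% and 3.58% of the other ND cells. At 1 depth the shares were 0.544% and 1.14% of KCs. The intervals of the 2 mice overlapped, but they cover counting error only and do not compare the genotypes. Dut and Pclaf, which act in DNA synthesis, were past 2-fold in the summed counts, with ratios of 2.12 and 2.26 in KCs and 0.714 and 0.748 in the other ND cells. The share of KCs with a count differed less, at 5.19% and 7.78% for Dut and 8.57% and 9.22% for Pclaf.

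On CDA-HFD almost no cell met the rule: 9 of 5885 (0.153%, 0.0700 to 0.290%) in the Egr2fl/fl mouse and 23 of 6186 (0.372%, 0.236 to 0.557%) in the Lyz2Cre/+.Egr2fl/fl mouse. Of the 9 and 23, 5 and 10 had a Timd4 count and 1 and 2 a Cxcl13 count. Summed, they held 3195 and 4739 CPM of Clec4f and 151 and 186 CPM of Timd4, against 672 and 639.6 CPM in ND KCs. The rule used these genes, so their levels describe its choice. Cd5l, which it did not use, was near the ND level, at 5269 and 6633 CPM.

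KCs were also set beside 337 macrophages of the CDA-HFD-fed mice (147 in Egr2fl/fl, 190 in Lyz2Cre/+.Egr2fl/fl) that failed the rule but had Adgre1 (F4/80) and at least 3 of Cd5l, Cd207, Il18bp, Vcam1 and Clec1b. These are called Cd5l Cd207 macrophages here. Diet, mouse and origin of the cells cannot be told apart in this comparison. Of 6476 genes read, 69 (1.07%) were at least 4-fold higher in KCs in both genotypes and 103 (1.59%) at least 4-fold lower (1 CPM added). The genes that chose the macrophages were shared by construction: Cd207 stood at 1111 and 1118 CPM in KCs and 932 and 1155 CPM in the macrophages.

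Of 14 KC factors read, none passed 4-fold, a count too small to tell from the share over all genes: Id3 stood at 1079.8 and 813 CPM in KCs and 1279 and 1118 CPM in the macrophages, Nr1h3 at 434 and 392 against 232 and 229 CPM and Spic at 105 and 99.7 against 80.2 and 63.0 CPM. Of 12 KC genes outside the rule that were read, 8 passed. Of 13 complement genes read, 3 were at least 4-fold higher in KCs and 1 at least 4-fold lower. C4b stood at 298 and 297 CPM in KCs and 1.29 and 7.52 CPM in the macrophages, and C2 at 124 and 112 against 1.29 and 2.51 CPM. The C1q chains did not pass 4-fold, with C1qa at 7659.6 and 8133 against 3755 and 3804 CPM. Apoc1 stood at 2491 and 2444 CPM against 144 and 106 CPM, while Apoe was lower in KCs, at 25958 and 30045 against 40883 and 42058 CPM. Ccl24 stood at 889 and 877 against 42.2 and 56.8 CPM and Icos, the costimulatory receptor best known from T cells, at 53.5 and 64.7 against 1.72 and 2.69 CPM. Chp2, Pcolce2, Sdc2, Ccdc148, Fam167a, Gprc5c, Kcnj16, Xlr, Gbp2b and Abhd11os completed the 15 highest.

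The lower side held genes of lipid-associated macrophages. Of 12 genes listed for them, 8 were read and 7 were at least 4-fold lower in KCs. Some fell short of the minimum share of cells with a count in KCs of both mice. These were Spp1 (6.10% and 4.91%), Gpnmb (6.75% and 6.95%) and Cd63 (10.4% and 11.4%). Fabp5 (16.4% and 16.8%) and F10 (4.68% and 6.47%), also listed, fell short of it too. The count of 7 therefore rests partly on genes read only through the macrophages, where they were higher. Gpnmb, a lysosomal glycoprotein, stood at 4.06 and 4.19 CPM in KCs and 738 and 753 CPM in the macrophages, Cd63 at 8.58 and 11.7 against 763 and 569 CPM and Spp1, osteopontin, at 5.82 and 3.41 against 231 and 237 CPM. Trem2 stood at 61.2 and 118 against 946 and 971 CPM. The fractalkine receptor Cx3cr1, carried by cells of monocyte origin, stood at 11.7 and 19.2 against 413 and 375 CPM, and the galectin Lgals1 at 16.5 and 29.4 against 749.8 and 883 CPM. Of 13 lipid handling genes read, none was at least 4-fold lower in KCs and 1 was at least 4-fold higher. Of 19 uptake receptors, 2 were lower and 1 higher. Among single genes, the fatty acid receptor Cd36 stood at 126 and 129 against 564 and 579.6 CPM and Plin2, the coat of lipid droplets, at 150.5 and 144 against 591 and 478 CPM. Cd36 passed 4-fold in both genotypes and Plin2 did not. Egr2 itself stood at 55.1 CPM in the macrophages of the Egr2fl/fl mouse and 2.51 CPM in those of the Lyz2Cre/+.Egr2fl/fl mouse, against 5.30 and 0.996 CPM in ND KCs.

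**Figure D5:**
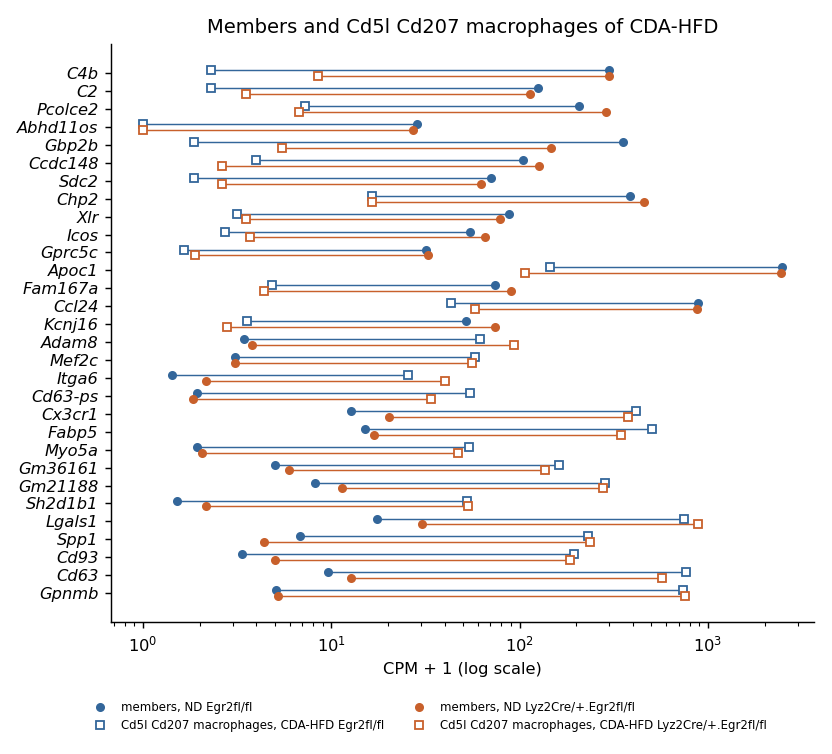
CPM plus 1 on a log scale (x axis) of the 15 most raised and 15 most lowered genes of ND KCs relative to Cd5l Cd207 macrophages of CDA-HFD (y axis), as 1 point per mouse and kind of cell. The kinds of cell lie apart for each gene shown, as for Gpnmb, at 4.06 and 4.19 CPM in KCs and 738 and 753 CPM in the macrophages.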

How the data were processed

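Liver leukocytes of 4 mice, 1 per genotype and diet, were sorted, hashtagged, pooled and sequenced as 1 BD Rhapsody library amplified by TAS-Seq. Reads were mapped by the authors against the GRCm38-101 transcriptome; they assigned cells to mice by hashtag and deposited raw counts per gene and barcode, used here as deposited; whether these are reads or molecules is not given in the sources used here. Their notes name Seurat 4.1.1 and R 4.2.1. In the table, 34 genes have no value between 0 and 5, and their ratios were also read with each 0 set to the highest missing count.

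Cells were taken by the rule on 7 marker genes, and the members and gene lists were chosen with earlier results of these data known. The authors' 1392 doublet barcodes carry no mouse and were left out; no doublet caller was run. The hashtag library served to assign cells and to read hashtag purity. Counts were summed per mouse and kind of cell and scaled to CPM (Python 3.11.15, scipy 1.17.1). Shares have exact Clopper-Pearson intervals, ratios exact binomial intervals. Genes were read between the ND-fed mice with at least 200 counts in KCs and a count in at least 5% of KCs of 1 mouse, and against other cells with a count in at least 20% of cells. Thinned cells had 6553 counts, the 5th percentile of KCs, which left out 35 and 46 KCs. With 1 mouse per group no test was run. The scripts were tested on simulated data.

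Named genes were the rule's 7 genes, the genes of the lists, the 12 highest and 12 lowest genotype ratios past 2-fold with the same direction when averaged over cells, the 20 highest ratios to other ND cells, the 15 highest and 15 lowest ratios to the macrophages and the 12 highest ratios of variance to mean. Pf4, Dut, Pclaf, Lyz2 and the other Cd209 genes, and the genes of the splits, were added after the values were seen. Alternatives were another marker minimum, mitochondrial limit, hashtag purity, scaling (edgeR 4.0.16 TMM) and averaging. Some listed genes enter the counts over their lists and are not reported here by name.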

Additional observations from a re-analysis of the deposited data

Results flagged for a closer look

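For 7 genes past 2-fold in resident KCs between the ND-fed mice, the other cells of the same mice lay on the opposite side of 1, counting only genes with at least 200 counts in those cells and a counting interval there that leaves out 1; the differences between the kinds of cell were not tested. The ratio of the Lyz2Cre/+.Egr2fl/fl over the Egr2fl/fl mouse was 0.30 in KCs and 1.36 in the other ND cells for Il1b. It was 0.430 and 1.46 for Asb2, 0.463 and 2.06 for Cd55, 0.484 and 1.16 for the transcription factor gene Pou2f2 and 0.491 and 1.72 for the lipolysis inhibitor G0s2. On the other side, it was 2.12 in KCs and 0.714 in the other ND cells for Dut, and 2.26 and 0.748 for Pclaf. The other ND cells are a mixture of cell types whose shares differ between the mice.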

How the results depend on the processing

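Of 133 values of shares and counts recomputed under alternatives, 118 stayed within their interval or within 1.5 times. The others were as follows. The share of CDA-HFD cells that met the rule was 0.374% and 0.679% with at least 2 of the 6 marker genes, 0.0510% and 0.194% with at least 4, and 0.221% in Lyz2Cre/+.Egr2fl/fl without the 5% of cells with the highest totals. With at least 90% of hashtag counts from the own hashtag, KCs were 50.2% and 62.4% of cells, 12.2 points apart. Genes at least 2-fold higher in KCs of the Lyz2Cre/+.Egr2fl/fl mouse were 16 with a minimum of 500 counts and 69 with none. With 10 CPM added, 123 genes passed 4-fold over the other ND cells, and 31 higher and 47 lower against the CDA-HFD macrophages. Shares of KCs with endothelial genes were 2.31% and 3.04% in thinned cells. No value turned direction among the 24 named ratios in 12 settings, and 285 of 288 stayed past 2-fold; the exceptions were Slamf7, at 0.625 with at least 4 marker genes, and Asb2, at 0.522 without the highest totals and 0.574 as a mean over cells. Of 195 medians over gene lists, 8 crossed 1: heat shock genes in 4 settings (0.980 to 0.996 from 1.02), monocyte genes without the highest totals (0.821 from 1.09), and with TMM scaling uptake receptors (0.983 from 1.02), complement genes (0.988 from 1.03) and glucocorticoid targets (0.985 from 1.03). The cause of these changes was not tested. Setting each 0 of the 34 genes that lack low counts to the highest missing count, chosen after the data were seen, left 206 genes past 4-fold over the other ND cells. No paired analysis was possible because each group was 1 mouse, and no replicate could be left out. A level of 1 CPM rests on about 19 counts per mouse in KCs, 13 and 9 in the other ND cells and 5 and 6 in the CDA-HFD macrophages.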
